A study of Mus musculus with 12 samples.

Results

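The genes described here encode the protein core of the pre-mRNA splicing machinery and the hnRNPs, a family of proteins that coat newly made RNA. They were chosen by symbol alone. A symbol was taken when it started with Srsf, Sf3a, Sf3b or Prpf and a number, or with Hnrnp, Snrp or U2af. Of the 24411 symbols in the table, 68 met this rule. They are 11 SR proteins, 9 subunits of SF3A and SF3B, 3 U2AF genes, 12 Snrp genes, 13 Prpf genes and 20 hnRNPs. A total of 66 passed the filter on low counts. Srsf12, a shorter SR protein, and Snrpn, the form of the Sm protein B made mainly in brain, had 0 counts in all 12 libraries. The upper limit set by 3 counts was 0.293 to 0.321 CPM, counts scaled to library size, in a library, for counting error only.

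RNA came from HoxB8 cells, mouse myeloid progenitors kept immature by a Hoxb8 that works only while estrogen is present. All 4 groups carried a pMIG and a pMICH vector, and RNA was taken 24 h after estrogen had been removed. In Asxl1-MT2/T618I, pMIG held Asxl1-MT2, a truncation of Asxl1, and pMICH held CSF3R-T618I, a mutated receptor for granulocyte colony-stimulating factor. In Empty/T618I pMIG was empty and pMICH held CSF3R-T618I. In Asxl1-MT2/Empty pMIG held Asxl1-MT2 and pMICH was empty, and in Empty/Empty both vectors were empty. Each group had 3 libraries, here called A to C after their column letters. The labels do not tell whether libraries within a group are from separate cultures. The p-values therefore reflect only how these libraries vary, and that variation may be technical. Overexpression from the vectors is not the same as a change in the cells' own Asxl1 or Csf3r.

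Splicing removes introns in ordered steps. U1 snRNP marks the 5′ splice site, U2AF marks the 3′ splice site, and U2 snRNP with its SF3A and SF3B subunits binds the branch point. The U4/U6.U5 tri-snRNP, built around Prpf proteins, then joins and the complex of Prpf19 stabilises the active spliceosome. SR proteins bind exons and mostly promote their use, while hnRNPs bind exons and introns and often hold them back. In myeloid malignancies SF3B1, SRSF2, U2AF1 and ZRSR2 are recurrently mutated, SRSF2 and U2AF1 often together with ASXL1.

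Total counts were 9341984 to 10252291 per library. As a check of the labels, Asxl1 lay at 919 to 1086 CPM in Asxl1-MT2/T618I and 1678 to 1833 CPM in Asxl1-MT2/Empty, against 134 to 167 CPM in Empty/T618I and 116 to 125 CPM in Empty/Empty. Socs3, a target of CSF3R signalling, lay at 196 to 264 CPM in Asxl1-MT2/T618I and 151 to 176 CPM in Empty/T618I. It was at 10.4 to 11.1 CPM in Asxl1-MT2/Empty and 11.9 to 13.8 CPM in Empty/Empty. Hoxb8 lay at 559 to 586 CPM in Asxl1-MT2/T618I and 242 to 332 CPM in Empty/T618I. It was at 646 to 769 CPM in Asxl1-MT2/Empty and 626 to 705 CPM in Empty/Empty. Hoxb8 was thus lowest in Empty/T618I, and whether this has a part in the members' values was not tested. For 1 library titled Empty/Empty the genotype label names T618I, against its title. Its column letter is not known, so results are also given without each Empty/Empty library. No Empty/Empty library had Socs3 at the level of the T618I groups. No pair of libraries within a group was as alike as counting error alone would give.

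Promoter windows show the DNA in front of the members with the largest fall in Asxl1-MT2/T618I against Empty/T618I in each of the 4 largest classes. Each is the RefSeq window from 250 bases before to 50 bases after the gene's start (GRCm38.p6), written 5′ to 3′ on the gene's strand. Capitals mark matches, on either strand, to any of 6 motifs. The box bound by NF-Y was searched as CCAAT and the core promoter box bound by TBP as TATAAA. The motif of the ETS family was searched as CCGGAAG and that of basic helix-loop-helix factors, the E-box, as CACGTG. The motif of YY1 was searched as AAGATGGC and that of STAT factors as TTCNNNGAA.
Prpf31 (chr7:3629735-3630034, plus strand): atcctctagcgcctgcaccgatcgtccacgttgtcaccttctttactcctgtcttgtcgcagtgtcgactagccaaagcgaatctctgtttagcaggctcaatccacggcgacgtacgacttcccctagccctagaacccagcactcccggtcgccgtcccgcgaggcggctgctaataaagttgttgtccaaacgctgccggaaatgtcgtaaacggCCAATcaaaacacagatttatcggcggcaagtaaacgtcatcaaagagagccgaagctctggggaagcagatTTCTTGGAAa
Snrpf (chr10:93589609-93589908, minus strand): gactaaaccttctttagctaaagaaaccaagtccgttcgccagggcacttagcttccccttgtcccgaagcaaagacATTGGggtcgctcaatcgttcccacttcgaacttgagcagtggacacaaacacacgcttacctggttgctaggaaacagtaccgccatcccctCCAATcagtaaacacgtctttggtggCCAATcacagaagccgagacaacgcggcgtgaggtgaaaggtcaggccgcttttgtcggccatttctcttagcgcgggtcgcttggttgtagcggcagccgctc
Srsf1 (chr11:88047123-88047422, plus strand): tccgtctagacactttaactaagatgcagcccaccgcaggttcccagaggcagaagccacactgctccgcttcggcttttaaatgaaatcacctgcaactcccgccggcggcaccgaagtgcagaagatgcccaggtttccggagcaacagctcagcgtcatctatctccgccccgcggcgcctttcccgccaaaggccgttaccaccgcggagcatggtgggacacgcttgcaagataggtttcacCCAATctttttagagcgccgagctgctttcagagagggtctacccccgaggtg
Hnrnpab (chr11:51606832-51607131, minus strand): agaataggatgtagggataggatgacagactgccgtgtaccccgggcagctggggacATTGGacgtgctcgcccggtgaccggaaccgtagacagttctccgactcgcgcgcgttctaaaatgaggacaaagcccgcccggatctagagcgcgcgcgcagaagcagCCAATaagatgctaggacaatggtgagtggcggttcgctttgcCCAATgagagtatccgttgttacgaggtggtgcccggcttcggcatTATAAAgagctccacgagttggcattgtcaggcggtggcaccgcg
All 4 windows held CCAAT or its complement, with 1 match in Prpf31 and Srsf1 and 3 in Snrpf and Hnrnpab. Hnrnpab also held TATAAA, and Prpf31 held TTCTTGGAA as its only STAT match. None of the 4 held the ETS motif, the E-box or the YY1 motif. These are matches of letters, not measured binding. RefSeq windows were matched for 59 of the 68 members, with the first listed window used for each gene. Of these, 49.2% held CCAAT, against 39.3% of the windows of all genes tested. CCGGAAG was in 32.2% of the members' windows and in 19.4% of all tested. CACGTG was in 13.6% of the members' windows and 10.5% of all, TTCNNNGAA in 10.2% and 7.1%, TATAAA in 10.2% and 6.5%, and AAGATGGC in 5.08% and 5.1%. The median GC content was 60.0% in members and 60.67% in all genes tested, and the median number of CG pairs was 25 and 21. None of these motifs contains another in full, and no test was made.

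Splicing factor and hnRNP transcripts were abundant in every library. The members together took 1.40% to 1.54% of counts in Asxl1-MT2/T618I, 1.82% to 1.88% in Empty/T618I, 1.65% to 1.72% in Asxl1-MT2/Empty and 1.70% to 1.81% in Empty/Empty. Levels were compared between members as CPM per kilobase of the median length of a gene's GENCODE coding transcripts. On that scale Hnrnpk had the highest mean in Empty/Empty (765.5), followed by Hnrnpa2b1 (587), Hnrnpab (458) and Srsf2 (430.4). The order depends on the transcript taken. Per kilobase of the longest coding transcript, Hnrnpa2b1 came first (558), then Hnrnpab (389), Srsf2 (365) and Hnrnpk (245). Among tested members the lowest levels per kilobase of the median length in Empty/Empty were those of Prpf40b (5.09), Hnrnpa1 (9.10) and Prpf4 (10.99). The value of Hnrnpa1 is uncertain, since 42.2% of its 100-base stretches also occur in another annotated gene, 11 pseudogenes among them. The ranks of Hnrnpk, Hnrnpab and Srsf2 are uncertain too, with 26.1%, 23.25% and 30.6% of stretches shared with other annotated genes. Levels differed little between groups. The ratio of the highest to the lowest of the 4 group means had a median of 1.199 over the 66 tested members, against 1.40 over all 11578 genes tested. Among genes with a mean of at least 30 CPM, the median ratio was 1.19 for 64 members and 1.30 for 6347 genes. Empty/T618I had the highest mean of the 4 groups for 38 of the 66 members, and Asxl1-MT2/T618I had the lowest for 47. The same was not counted over all genes tested, so these counts do not show a trait particular to the members.

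Splicing factor and hnRNP transcripts were lower in cells with both Asxl1-MT2 and T618I than in cells with T618I alone. In Asxl1-MT2/T618I compared with Empty/T618I, 29 of 66 tested members were called lower and 0 higher at an adjusted p under 0.05 (edgeR quasi-likelihood test). The share of members called, 43.9%, equals the 43.9% called in either direction among all genes tested. The directions differed: 18.5% of all genes tested were called lower and 25.4% higher. The median log2 fold change of the members was -0.22, against 0.01 for all genes tested, and 57 of 66 members were below 0. The changes were small. No member called reached a 1.5-fold change, while 20.0% of all genes tested were called with at least that. A total of 38 members had groups that did not overlap, 35 of them with Asxl1-MT2/T618I below Empty/T618I. That is 57.6% of the members tested, near the 55.7% of all genes tested whose groups did not overlap. In bulk RNA, fewer cells of a type and less RNA per cell cannot be told apart. By class, the members called lower were 5 of 10 SR proteins, 3 of 9 SF3A and SF3B subunits, 1 of 3 U2AF genes, 3 of 11 Snrp genes, 7 of 13 Prpf genes and 10 of 20 hnRNPs. Of the 29 calls, 20 held in each of 12 fits that left out 1 library. Those lost in at least 1 such fit were Hnrnpa0, Hnrnpa2b1, Hnrnpc, Hnrnpk, Hnrnpr, Prpf38b, Prpf39, Sf3a1 and Snrpd1, with highest adjusted p-values of 0.0583 (Snrpd1) to 0.156 (Hnrnpa0) in the same edgeR test. The single libraries whose removal ended at least 1 of these calls were all 3 of Asxl1-MT2/T618I, all 3 of Empty/T618I, and Asxl1-MT2/Empty libraries A and B. The count of members lower fell to 20 without Asxl1-MT2/T618I library A.

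Scaling bears on this count. The TMM factors, which set the scale, were lowest in Asxl1-MT2/T618I. With library totals in place of TMM factors, the median of all genes tested moved to -0.12 on the log2 scale, 2256 genes were called higher and 3508 lower (2940 and 2142 with TMM), and 45 members were lower. The distance of the members' median from that of all genes was -0.2264 with library totals and -0.2269 with TMM.

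**Figure D1:**
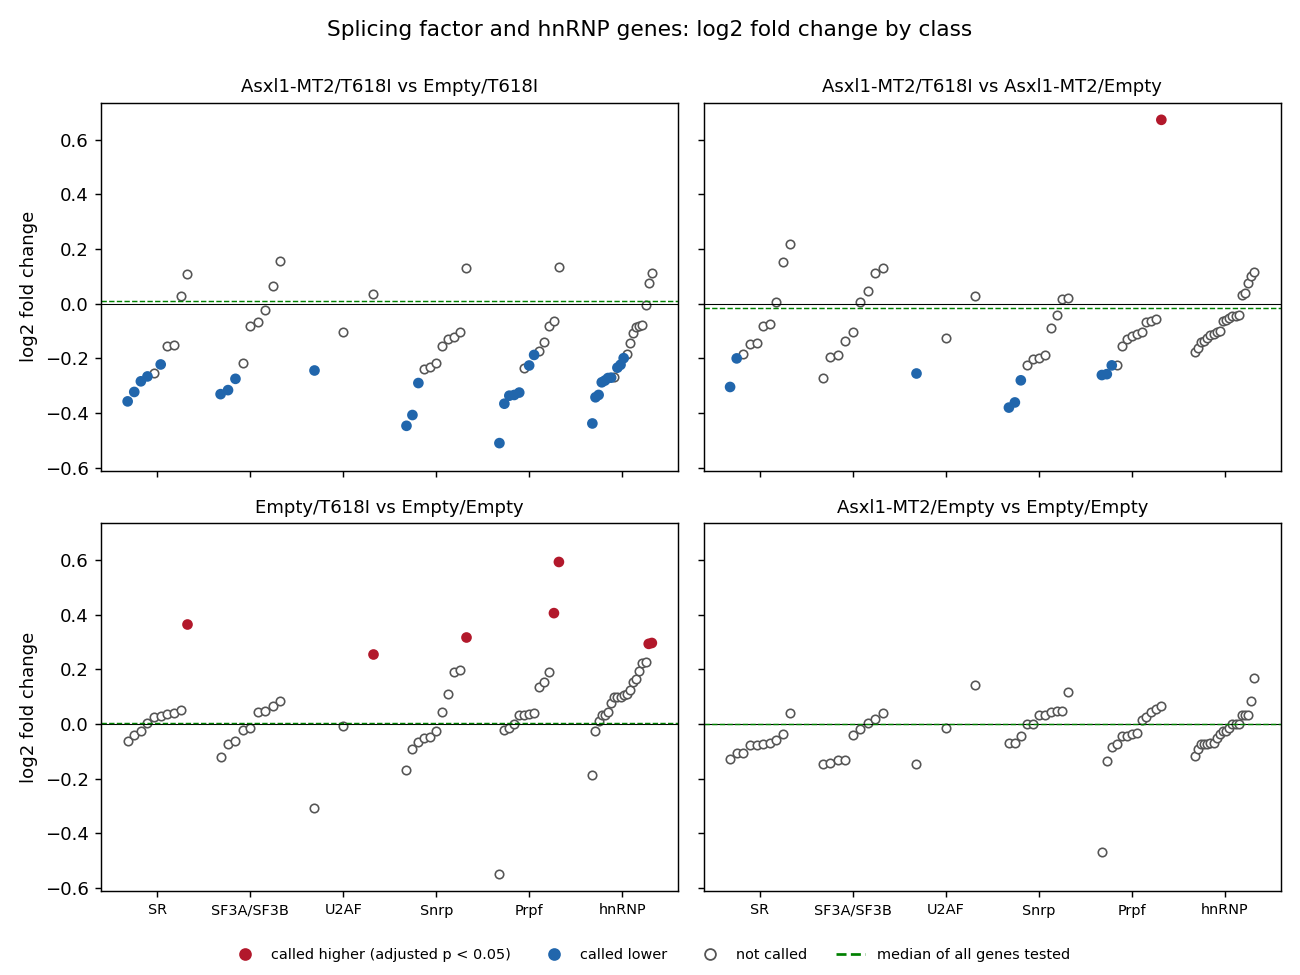
Each point is 1 of the 66 tested members, placed by class on the x axis and by its log2 fold change on the y axis, in 4 comparisons. Filled points passed the test, and the dashed line is the median of all genes tested. Blue points lie below 0 in every class for Asxl1-MT2/T618I against Empty/T618I, while no point is filled for Asxl1-MT2/Empty against Empty/Empty.

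Marker genes of maturing cells moved in the same comparison. All 14 mature neutrophil markers were called higher in Asxl1-MT2/T618I than in Empty/T618I, and their summed level was 22097 to 31189 CPM in Asxl1-MT2/T618I, against 4559 to 5705 CPM in Empty/T618I, with none at 0. In every comparison this list includes Csf3r, the gene of the receptor that the T618I vector carries. Whether reads from the vector were counted for it is not known. Among 11 neutrophil progenitor markers tested 2 were higher and 2 lower, with sums of 15716 to 20369 CPM in Asxl1-MT2/T618I and 17235 to 20598 CPM in Empty/T618I. Of 13 mast cell and basophil markers 7 were lower, with sums of 3551 to 3929 CPM in Asxl1-MT2/T618I and 3568 to 6522 CPM in Empty/T618I. Monocyte and macrophage markers (6 of 8 tested higher) summed to 998 to 1371 CPM in Asxl1-MT2/T618I and 525 to 576 CPM in Empty/T618I. Erythroid and megakaryocyte markers (4 of 5 tested lower) summed to 113 to 157 CPM in Asxl1-MT2/T618I and 168 to 249.7 CPM in Empty/T618I, with the globins Hba-a1, Hba-a2, Hbb-bs and Hbb-bt at 0 in both. Lymphoid markers (1 of 4 tested lower) summed to 38.3 to 42.9 CPM in Asxl1-MT2/T618I and 49.4 to 92.2 CPM in Empty/T618I, with Pax5 and Cd3e among those at 0 in both. Stromal markers (1 of 3 tested higher, 1 lower) summed to 25.6 to 31.3 CPM in Asxl1-MT2/T618I and 22.2 to 25.1 CPM in Empty/T618I, with Cxcl12 at 0 in both. Proliferation genes changed less: 3 of 25 were lower (Mcm2, Mcm3 and Cdc6) and 0 higher, with sums of 7031 to 7562 CPM in Asxl1-MT2/T618I and 7574 to 8205 CPM in Empty/T618I. Nuclear RNAs (Malat1 and Neat1 higher, Gas5 lower, of 5 tested) summed to 877 to 1152 CPM in Asxl1-MT2/T618I and 661 to 845 CPM in Empty/T618I. The part of cell make-up, proliferation or nuclear RNA in the lower splicing factor levels was not tested.

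The U2AF and SF3 genes act at the 3′ splice site. U2af2 encodes the large U2AF subunit, which binds the polypyrimidine tract. It was at 325, 344 and 337 CPM in Asxl1-MT2/T618I, 395, 393 and 399 CPM in Empty/T618I, 335, 333 and 317 CPM in Asxl1-MT2/Empty and 326, 323 and 345 CPM in Empty/Empty. The Empty/T618I libraries stood above all others, and the other groups overlapped. U2af2 was lower in Asxl1-MT2/T618I relative to Empty/T618I, with a log2 fold change of -0.24 ± 0.0672 (SE; edgeR adjusted p = 0.00742), and higher in Empty/T618I than in Empty/Empty, at 0.26 ± 0.0672 (SE; edgeR adjusted p = 0.00622). These comparisons share the Empty/T618I libraries. U2af1l4, a relative of the small subunit, was at 26.1, 29.03 and 29.1 CPM in Asxl1-MT2/T618I, 31.2, 27.2 and 23.8 CPM in Empty/T618I, 32.5, 31.5 and 28.04 CPM in Asxl1-MT2/Empty and 37.05, 37.1 and 27.8 CPM in Empty/Empty. It passed no test, and 97.1% of its sequence stretches also occur in another annotated gene, so its level is uncertain.

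Sf3b3, a scaffold subunit of SF3B, was at 355, 376 and 393 CPM in Asxl1-MT2/T618I, against 456, 482 and 477 CPM in Empty/T618I. The groups did not overlap. Its log2 fold change was -0.33 ± 0.0732 (SE; edgeR adjusted p = 0.00141), and it was also lower in Asxl1-MT2/T618I relative to Empty/Empty, where it had 467, 463 and 440.4 CPM in Empty/Empty (-0.29 ± 0.0732 (SE; edgeR adjusted p = 0.0035)). Sf3a3 and Sf3a1, subunits of SF3A, were lower in Asxl1-MT2/T618I relative to Empty/T618I too, at log2 fold changes of -0.32 and -0.28. Sf3b1, the subunit that holds the branch point region, had the highest log2 fold change of all members in this comparison (0.16) and was not called. Sf3b6, which contacts the branch point adenosine, was called lower in Asxl1-MT2/T618I relative to Empty/Empty (-0.21; edgeR adjusted p = 0.0453). That call was lost without Asxl1-MT2/T618I library A or C, Empty/T618I library A or B, Asxl1-MT2/Empty library A, or Empty/Empty library A or C (highest adjusted p = 0.137). Sf3b2, Sf3b4, Sf3b5 and Sf3a2 passed no test in any comparison. Levels of Sf3b4 and Sf3a2 are uncertain, with 36.9% and 15.6% of their stretches also found in another annotated gene.

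Snrp genes encode the Sm proteins, which form a ring on the small nuclear RNAs, and proteins particular to U1 and U2. Snrpf, a member of the Sm ring (chromosome 10, 93583029 to 93589706, GRCm38, GENCODE M21), was at 87.9, 92.8 and 87.5 CPM in Asxl1-MT2/T618I, 114, 122 and 131 CPM in Empty/T618I, 108, 120.2 and 121 CPM in Asxl1-MT2/Empty and 106, 96.03 and 137 CPM in Empty/Empty. All 3 Asxl1-MT2/T618I libraries lay below the other 9. The log2 fold change was -0.45 ± 0.107 (SE; edgeR adjusted p = 0.00261) against Empty/T618I, and -0.38 ± 0.107 (SE; edgeR adjusted p = 0.00694) against Asxl1-MT2/Empty. Counts of Snrpf are uncertain, since 78.3% of its stretches also occur in transcripts of another gene, and its exons overlap those of Ccdc38 on the opposite strand. Snrpd1, another Sm protein, was at 106, 113 and 114 CPM in Asxl1-MT2/T618I, 142, 139.6 and 126 CPM in Empty/T618I, 129.5, 137 and 163 CPM in Asxl1-MT2/Empty and 135, 122 and 139 CPM in Empty/Empty. The Asxl1-MT2/T618I libraries were again below all others, and Snrpd1 was lower than in Empty/T618I (-0.29 ± 0.0907 (SE; edgeR adjusted p = 0.015); lost without Asxl1-MT2/T618I library A, at 0.0583) and than in Asxl1-MT2/Empty (-0.36 ± 0.0907 (SE; edgeR adjusted p = 0.00309)).

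Snrpa1, which binds U2 RNA (chromosome 7, 66059003 to 66074587), was at 48.4, 49.6 and 60.8 CPM in Asxl1-MT2/T618I, 70.3, 65.9 and 74.7 CPM in Empty/T618I, 54.8, 56.03 and 58.2 CPM in Asxl1-MT2/Empty and 53.4, 55.97 and 59.8 CPM in Empty/Empty. Here the Empty/T618I libraries stood above the other 9, and the remaining groups overlapped. Its log2 fold change was -0.41 ± 0.0944 (SE; edgeR adjusted p = 0.00203) in Asxl1-MT2/T618I against Empty/T618I, and 0.32 ± 0.0939 (SE; edgeR adjusted p = 0.014) in Empty/T618I against Empty/Empty. The call against Empty/Empty was lost without Empty/Empty library A (adjusted p = 0.0611, edgeR). Snrpb2, the partner of Snrpa1 on U2 RNA, fell in Asxl1-MT2/T618I against Asxl1-MT2/Empty (-0.28; adjusted p = 0.0232, edgeR), a call lost without Asxl1-MT2/Empty library B or any 1 Asxl1-MT2/T618I library (highest adjusted p = 0.0702). The remaining Sm genes Snrpb, Snrpd2, Snrpd3, Snrpe and Snrpg, and the U1 genes Snrpa and Snrpc, passed no test. Their log2 fold changes against Empty/T618I ran from -0.24 for Snrpd3 to 0.13 for Snrpc.

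Prpf genes encode proteins of the U5 and U4/U6 snRNPs and of the steps of catalysis. Prpf31, which joins U4/U6 to U5 (chromosome 7, 3629985 to 3642486, next to the promoter shown above), was at 109, 115 and 120.0 CPM in Asxl1-MT2/T618I, 152, 169 and 169 CPM in Empty/T618I, 126, 122 and 125 CPM in Asxl1-MT2/Empty and 117, 109 and 144 CPM in Empty/Empty. The Empty/T618I libraries lay above all others. Prpf31 had the largest fall of any member in Asxl1-MT2/T618I against Empty/T618I, with a log2 fold change of -0.51 ± 0.0919 (SE; edgeR adjusted p = 0.000234). It was higher in Empty/T618I than in Empty/Empty, at 0.41 ± 0.0916 (SE; edgeR adjusted p = 0.00203). Both calls held in each fit without 1 library. Prpf19, the ubiquitin ligase of the complex named after it (chromosome 19, 10895231 to 10909559), was at 169.8, 180.2 and 185 CPM in Asxl1-MT2/T618I, 222, 227 and 226 CPM in Empty/T618I, 212, 222 and 192 CPM in Asxl1-MT2/Empty and 198, 206 and 203 CPM in Empty/Empty. All Asxl1-MT2/T618I libraries were below the other 9. It was lower in Asxl1-MT2/T618I relative to Empty/T618I (-0.34 ± 0.0728 (SE; edgeR adjusted p = 0.00117)) and to Asxl1-MT2/Empty (-0.23 ± 0.0729 (SE; edgeR adjusted p = 0.0159)). Prpf8, the core of U5 at the centre of the spliceosome, was at 687, 655 and 749 CPM in Asxl1-MT2/T618I, 796, 918 and 981 CPM in Empty/T618I, 778, 825 and 903 CPM in Asxl1-MT2/Empty and 835, 912 and 888 CPM in Empty/Empty. The Asxl1-MT2/T618I libraries were again the lowest, and the fall against Empty/T618I was -0.37 ± 0.0892 (SE; edgeR adjusted p = 0.00297). Prpf4 of the U4/U6 snRNP (-0.33), the kinase gene Prpf4b (-0.33), Prpf39 of the U1 snRNP (-0.23) and Prpf38b (-0.19) were also called lower than in Empty/T618I on the log2 scale.

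Prpf18, a factor of the second catalytic step (chromosome 2, 4622058 to 4652113), went the other way. It was at 80.6, 72.1 and 66.2 CPM in Asxl1-MT2/T618I, 67.9, 61.9 and 69.8 CPM in Empty/T618I, 45.3, 44 and 48 CPM in Asxl1-MT2/Empty and 39.7, 42.5 and 50.1 CPM in Empty/Empty. All 6 libraries with T618I lay above all 6 without it. The log2 fold change was 0.59 ± 0.1 (SE; edgeR adjusted p = 0.000148) in Empty/T618I against Empty/Empty, and 0.67 ± 0.0999 (SE; edgeR adjusted p = 2.3e-05) in Asxl1-MT2/T618I against Asxl1-MT2/Empty. It was 0.05 in Asxl1-MT2/Empty against Empty/Empty and 0.13 in Asxl1-MT2/T618I against Empty/T618I, neither of them called. Prpf18 was the only member called with at least a 1.5-fold change in either T618I comparison with matched Asxl1-MT2 status, where 18.2% (without Asxl1-MT2) and 25.8% (with it) of all genes tested were called with at least that. Its calls held without any 1 library. None of its 100-base stretches occurs in another annotated gene. Prpf40b, a U1-associated protein, was at 3.82, 6.79 and 5.99 CPM in Asxl1-MT2/T618I, 6.73, 5.15 and 6.47 CPM in Empty/T618I, 7.41, 6.71 and 5.29 CPM in Asxl1-MT2/Empty and 10.27, 9.44 and 7.12 CPM in Empty/Empty. It was lower in Asxl1-MT2/T618I relative to Empty/Empty (-0.69 ± 0.215 (SE; edgeR adjusted p = 0.0125)), a call lost without Asxl1-MT2/T618I library A or Empty/Empty library A (highest adjusted p = 0.0727). The depth behind it is low. Prpf3, Prpf6 and Prpf38a passed no test.

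**Figure D2:**
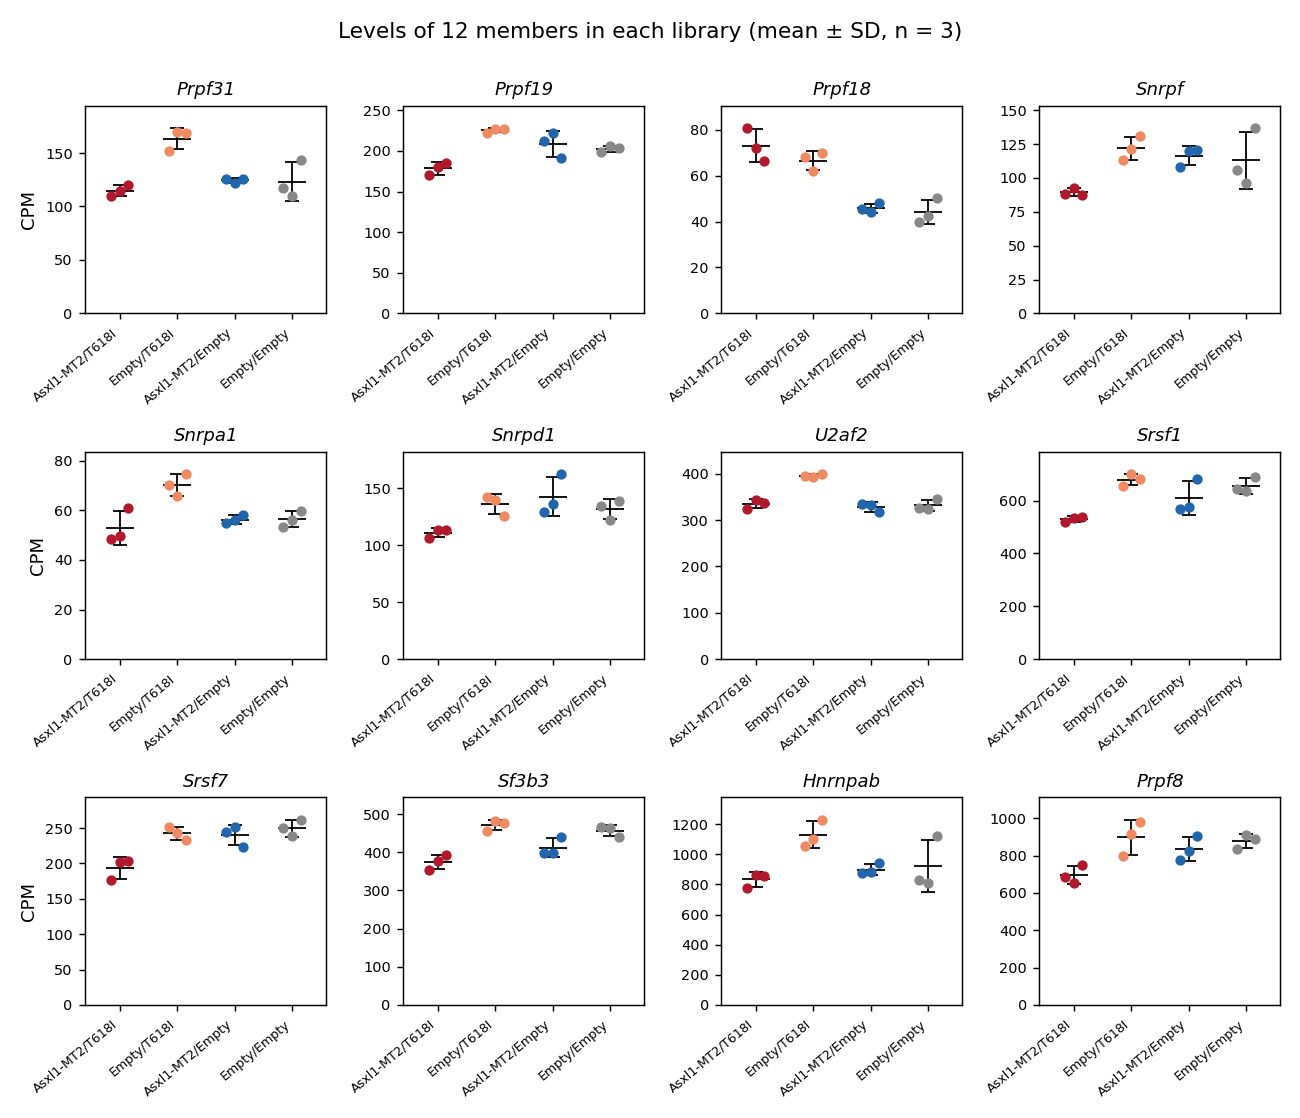
Levels in CPM (y axis, from 0) of 12 members in each of the 12 libraries, by group on the x axis. Points are libraries and black bars are mean ± SD (n = 3). Prpf31, Snrpa1 and U2af2 are highest in Empty/T618I, Snrpf, Snrpd1, Prpf19 and Prpf8 are lowest in Asxl1-MT2/T618I, and Prpf18 is higher in both T618I groups.

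SR proteins bind exonic sequences through their RNA recognition motifs. Srsf1, which also has roles in mRNA export and translation, was at 517, 535 and 538 CPM in Asxl1-MT2/T618I, against 657, 699.7 and 681 CPM in Empty/T618I. The groups did not overlap, and the log2 fold change was -0.36 ± 0.0797 (SE; edgeR adjusted p = 0.00151). Without T618I the values overlapped, with 569, 576 and 683 CPM in Asxl1-MT2/Empty, against 644, 635 and 689 CPM in Empty/Empty. Srsf7, an SR protein with a zinc knuckle, was at 176, 202 and 204 CPM in Asxl1-MT2/T618I, against 252, 243 and 234 CPM in Empty/T618I. It was lower in Asxl1-MT2/T618I relative to Empty/T618I (-0.32 ± 0.0789 (SE; edgeR adjusted p = 0.00303)), to Asxl1-MT2/Empty (-0.30 ± 0.0789 (SE; edgeR adjusted p = 0.00387)) and to Empty/Empty (-0.36 ± 0.0789 (SE; edgeR adjusted p = 0.000909)), and each of these calls held without any 1 library. Srsf3, Srsf6 and Srsf10 were called lower than in Empty/T618I as well, at -0.27, -0.22 and -0.28 on the log2 scale. Srsf9, a small SR protein, was at 71.4, 72.2 and 77.1 CPM in Empty/T618I, against 48.8, 51.1 and 71.5 CPM in Empty/Empty. Those groups overlapped through Empty/Empty library C. It was called higher in Empty/T618I (0.37 ± 0.126 (SE; edgeR adjusted p = 0.0324)), and the call was lost without Empty/Empty library A or B or Empty/T618I library C (highest adjusted p = 0.153). Srsf4, Srsf5 and Srsf11 passed no test in any comparison. Levels of Srsf4, Srsf3 and Srsf5 are uncertain, with 62.5%, 20.7% and 17.9% of their stretches also found in other annotated genes.

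hnRNPs bind nascent transcripts, and several also shuttle to the cytoplasm. Hnrnpab, an abundant nuclear RNA-binding protein, was at 775, 866 and 859 CPM in Asxl1-MT2/T618I, 1059, 1099 and 1231 CPM in Empty/T618I, 873, 884 and 941 CPM in Asxl1-MT2/Empty and 832, 813 and 1120.5 CPM in Empty/Empty. It was lower in Asxl1-MT2/T618I relative to Empty/T618I (-0.44 ± 0.106 (SE; edgeR adjusted p = 0.00294)). It was called higher in Empty/T618I than in Empty/Empty (0.29 ± 0.106 (SE; edgeR adjusted p = 0.0416)), where Empty/Empty library C lay inside the range of Empty/T618I. That second call was lost in 6 of 12 fits without 1 library, namely without Empty/T618I library B or C, Asxl1-MT2/Empty library A or B, or Empty/Empty library A or B (highest adjusted p = 0.171). Counts of Hnrnpab are uncertain, since 23.25% of its stretches also occur in Phykpl, an overlapping gene on the opposite strand. Hnrnpr (-0.34), the nuclear scaffold protein Hnrnpu (-0.33), Hnrnpd, known as AUF1 for its binding to AU-rich elements (-0.29), and Hnrnph1 (-0.28) had the next largest log2 falls against Empty/T618I among the called hnRNPs. Hnrnpdl, Hnrnpa0, Hnrnpc, Hnrnpa2b1 and Hnrnpk were called lower too, at -0.27 to -0.20. Hnrnph3, a short relative of Hnrnph1, was at 40.9, 34.3 and 39.97 CPM in Empty/T618I, against 32.3, 30.9 and 30.4 CPM in Empty/Empty. It was called higher in Empty/T618I (0.30 ± 0.0941 (SE; edgeR adjusted p = 0.021)), and this was lost without Empty/T618I library A or C (highest adjusted p = 0.0661). Hnrnpa3 was at 77.1, 84.2 and 75.9 CPM in Asxl1-MT2/T618I, against 104, 97.9 and 83.9 CPM in Empty/Empty. It was called lower (-0.27 ± 0.0902 (SE; edgeR adjusted p = 0.0195)), but 27.5% of its stretches also occur elsewhere, in 24 pseudogenes among others, and the call was lost without Asxl1-MT2/T618I library A or C or Empty/Empty library A or B (highest adjusted p = 0.0967). Hnrnpl, Hnrnpm, Hnrnpf, Hnrnph2, Hnrnpll, Hnrnpul1, Hnrnpul2 and Hnrnpa1 passed no test. Levels of Hnrnpf and Hnrnpm are uncertain, with 56.3% and 27.9% of their stretches also found in other annotated genes.

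**Figure D3:**
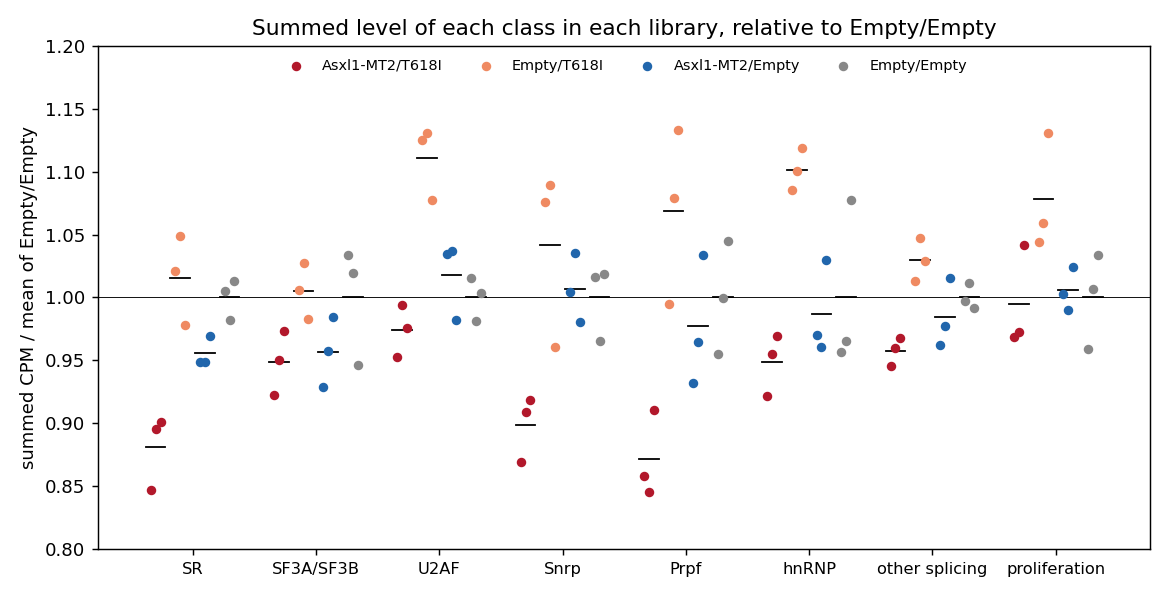
Summed CPM of each class in each library, divided by the mean of Empty/Empty (y axis, linear, from 0.8), with black bars at group means. The Asxl1-MT2/T618I points lie below the Empty/T618I points in all 6 classes and in the list of other splicing genes. For proliferation genes the highest Asxl1-MT2/T618I library (7562 CPM) and the lowest Empty/T618I library (7574 CPM) nearly meet.

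Summed over a class, the SR proteins reached 2646 to 2814 CPM in Asxl1-MT2/T618I, against 3055 to 3277 CPM in Empty/T618I. The Prpf genes summed to 1737 to 1872 CPM in Asxl1-MT2/T618I and 2044 to 2329 CPM in Empty/T618I, and the hnRNPs to 7319 to 7698 CPM in Asxl1-MT2/T618I and 8624 to 8886 CPM in Empty/T618I. The Snrp genes summed to 979 to 1035 CPM in Asxl1-MT2/T618I and 1083 to 1227 CPM in Empty/T618I. U2AF sums were 492 to 513 CPM in Asxl1-MT2/T618I and 556 to 584 CPM in Empty/T618I, and SF3A and SF3B sums were 1995 to 2105 CPM in Asxl1-MT2/T618I and 2126 to 2223 CPM in Empty/T618I. The ranges of the 2 groups did not overlap in any class. For hnRNPs, U2AF, and SF3A and SF3B, the sums of Asxl1-MT2/T618I overlapped those of both groups without T618I. The hnRNPs summed to 7629 to 8180 CPM in Asxl1-MT2/Empty and 7603 to 8563 CPM in Empty/Empty. U2AF summed to 507 to 536 CPM in Asxl1-MT2/Empty and 507 to 525 CPM in Empty/Empty. SF3A and SF3B summed to 2009 to 2130 CPM in Asxl1-MT2/Empty and 2047 to 2237 CPM in Empty/Empty. For SR proteins, Snrp and Prpf genes, the sums of Asxl1-MT2/T618I lay below those of both groups without T618I. The SR proteins summed to 2964 to 3030 CPM in Asxl1-MT2/Empty and 3068 to 3165 CPM in Empty/Empty. The Snrp genes had 1105 to 1166 CPM in Asxl1-MT2/Empty and 1088 to 1148 CPM in Empty/Empty. The Prpf genes had 1916 to 2125 CPM in Asxl1-MT2/Empty and 1963 to 2148 CPM in Empty/Empty. These sums were not tested.

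T618I on its own was followed by comparing Empty/T618I with Empty/Empty. A total of 7 members were called higher and 0 lower, that is 10.6% of those tested, against 33.5% of all genes tested (17.6% higher, 15.9% lower). The 7 were Prpf18, Prpf31, U2af2, Snrpa1, Srsf9, Hnrnph3 and Hnrnpab, whose values are given above. No SF3A or SF3B subunit was called. The members' median log2 fold change was 0.04, against 0.00 for all genes. The groups did not overlap for 10 members, 9 of them with Empty/T618I above Empty/Empty, that is 15.2% against 44.6% of all genes tested. Only Prpf18, Prpf31 and U2af2 kept their call in all 12 fits without 1 library. The number higher was 4 without Empty/T618I library C, 4 without Empty/Empty library A and 14 without Empty/Empty library C, and in that last fit 3 members were lower. All 13 mast cell and basophil markers were called higher, with sums of 3568 to 6522 CPM in Empty/T618I and 1160 to 1354 CPM in Empty/Empty, of which Fcer1a was at 0 in Empty/Empty. Of 14 mature neutrophil markers 10 were higher and 1 lower (4559 to 5705 CPM in Empty/T618I, 1998 to 2941 CPM in Empty/Empty), and 8 of 11 progenitor markers were lower (17235 to 20598 CPM in Empty/T618I, 35463 to 44717 CPM in Empty/Empty). Of 25 proliferation genes 6 were higher and 2 lower. Whether these shifts have a part in the members' values was not tested.

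Asxl1-MT2 without T618I left no member called. In Asxl1-MT2/Empty compared with Empty/Empty, 0 of 66 members were called higher and 0 lower with edgeR, and 0 with DESeq2, against 1.76% of all genes tested (1.21% higher, 0.553% lower). At an unadjusted p under 0.05 there was 1 member, Prpf40b, with 7.41, 6.71 and 5.29 CPM in Asxl1-MT2/Empty and a log2 fold change of -0.47 ± 0.209 (SE; edgeR adjusted p = 0.417). The members' log2 fold changes ran from -0.47 (Prpf40b) to 0.17 (Hnrnph2), with a median of -0.04. The groups did not overlap for 4 members, 6.06% against 15.9% of all genes tested. Among markers, 3 of 13 mast cell and basophil genes (Cpa3, Gata2 and Hdc) were lower in Asxl1-MT2/Empty, with sums of 718 to 767 CPM in Asxl1-MT2/Empty and 1160 to 1354 CPM in Empty/Empty. Of 14 mature neutrophil markers 1 was higher and 1 lower, and of 25 proliferation genes 0 were called (edgeR; 0 at an unadjusted p under 0.05).

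T618I in cells with Asxl1-MT2 was examined through Asxl1-MT2/T618I and Asxl1-MT2/Empty. Here 1 member, Prpf18, was higher and 9 were lower, 15.2% of those tested against 49.7% of all genes (26.9% higher, 22.8% lower). The 9 were Snrpf, Snrpd1, Snrpb2, Prpf8, Prpf19, Prpf4b, Srsf1, Srsf7 and U2af1. Of the 20 hnRNPs 0 were called. Snrpf, Snrpd1 and Srsf7 kept their call without any 1 library. The other 6 were lost without at least 1 library of Asxl1-MT2/T618I (A, B or C), Empty/T618I (A, B or C), Asxl1-MT2/Empty (B or C) or Empty/Empty (A or B), with highest edgeR adjusted p-values of 0.0525 (U2af1) to 0.225 (Srsf1). The number lower was 4 without Asxl1-MT2/T618I library A and 3 without Asxl1-MT2/T618I library B, and the number higher was 2 without Asxl1-MT2/Empty library C. The median log2 fold change was -0.11 in members and -0.02 in all genes tested. Against Empty/Empty, Asxl1-MT2/T618I had 1 member higher (Prpf18) and 19 lower, 30.3% of those tested, against 50.5% of all genes called (27.4% higher, 23.0% lower). The median log2 fold change there was -0.13 in members and -0.01 in all genes tested. By class, the members lower were 5 of 10 SR proteins, 4 of 9 SF3A and SF3B subunits and 0 of 3 U2AF genes. The rest were 3 of 11 Snrp genes, 5 of 13 Prpf genes and 2 of 20 hnRNPs. Prpf8, Sf3b3, Srsf1, Srsf7 and Srsf10 kept their calls without any 1 library. The other 14 were lost without at least 1 library of Asxl1-MT2/T618I (A, B or C), Empty/T618I (A or B), Asxl1-MT2/Empty (A or B) or Empty/Empty (A, B or C), with highest adjusted p-values of 0.0516 (Srsf3) to 0.182 (Sf3a1) in edgeR. The number lower was 8 without Asxl1-MT2/T618I library A and 10 without Asxl1-MT2/T618I library B, and the number higher was 3 without Empty/Empty library C. With library totals in place of TMM, all genes split into 2577 higher and 3809 lower against Asxl1-MT2/Empty (3111 and 2644 with TMM), and into 2585 and 4044 against Empty/Empty (3178 and 2668 with TMM). Markers moved in both comparisons. Against Asxl1-MT2/Empty, all 14 mature neutrophil markers (22097 to 31189 CPM in Asxl1-MT2/T618I, 2481 to 3440 CPM in Asxl1-MT2/Empty) and all 13 mast cell and basophil markers (3551 to 3929 CPM in Asxl1-MT2/T618I, 718 to 767 CPM in Asxl1-MT2/Empty) were higher. Of 11 progenitor markers 8 were lower and 1 higher (15716 to 20369 CPM in Asxl1-MT2/T618I, 39726 to 44592 CPM in Asxl1-MT2/Empty), and of 25 proliferation genes 6 were higher and 7 lower. Against Empty/Empty, 14 of 14 mature neutrophil and 12 of 13 mast cell and basophil markers were higher, 8 of 11 progenitor markers were lower and 1 higher, and 6 proliferation genes were higher and 5 lower. Whether these shifts have a part in the members' calls was not tested. Comparisons that share Asxl1-MT2/T618I or Empty/Empty are not independent of each other.

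The difference between the effect of Asxl1-MT2 with T618I and without it was tested directly as an interaction in the same model. The 2 effects come with unequal Asxl1 levels, 919 to 1086 CPM in Asxl1-MT2/T618I and 1678 to 1833 CPM in Asxl1-MT2/Empty. Whether this has a part in the interaction was not tested. The interaction was called lower for 5 members and higher for 0, 7.58% of those tested, against 19.6% of all genes tested (5.55% lower, 14.1% higher). The interaction of Prpf31 was -0.52 ± 0.13 (SE; edgeR adjusted p = 0.00865) on the log2 scale, made up of -0.51 with T618I and 0.01 without. That of Prpf19 was -0.38 ± 0.103 (SE; edgeR adjusted p = 0.0146), with -0.34 and 0.04. Both held without any 1 library. The 3 Snrp genes were less stable. Snrpf had -0.49 ± 0.15 (SE; edgeR adjusted p = 0.0287), Snrpd1 -0.41 ± 0.128 (SE; edgeR adjusted p = 0.0324) and Snrpa1 -0.41 ± 0.134 (SE; edgeR adjusted p = 0.0403), and they held in 5, 6 and 3 of the 12 fits without 1 library. Their highest edgeR adjusted p-values there were 0.0825, 0.0953 and 0.11. Each library other than Asxl1-MT2/T618I library C and Empty/Empty library C ended at least 1 of these calls. Hnrnpab came next and did not pass (-0.40 ± 0.15 (SE; edgeR adjusted p = 0.0682)). The members' median interaction was -0.17, against 0.02 for all genes. The count was 2 to 5 in 11 of the 12 fits without 1 library and 11 without Empty/Empty library C; it was 2 without Asxl1-MT2/T618I library A, Asxl1-MT2/Empty library C or Empty/Empty library B, and 3 without Asxl1-MT2/T618I library B, Empty/T618I library B, Asxl1-MT2/Empty library B or Empty/Empty library A. The same test called all 14 mature neutrophil markers, 6 of 8 monocyte and macrophage markers and 2 of 11 progenitor markers higher, and 0 of 13 mast cell and basophil markers and 0 of 25 proliferation genes (edgeR; 2 and 3 at an unadjusted p under 0.05). Whether cell make-up has a part in the members' interaction was not tested. With library totals 1309 genes were higher and 1407 lower (1629 and 643 with TMM).

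**Figure D4:**
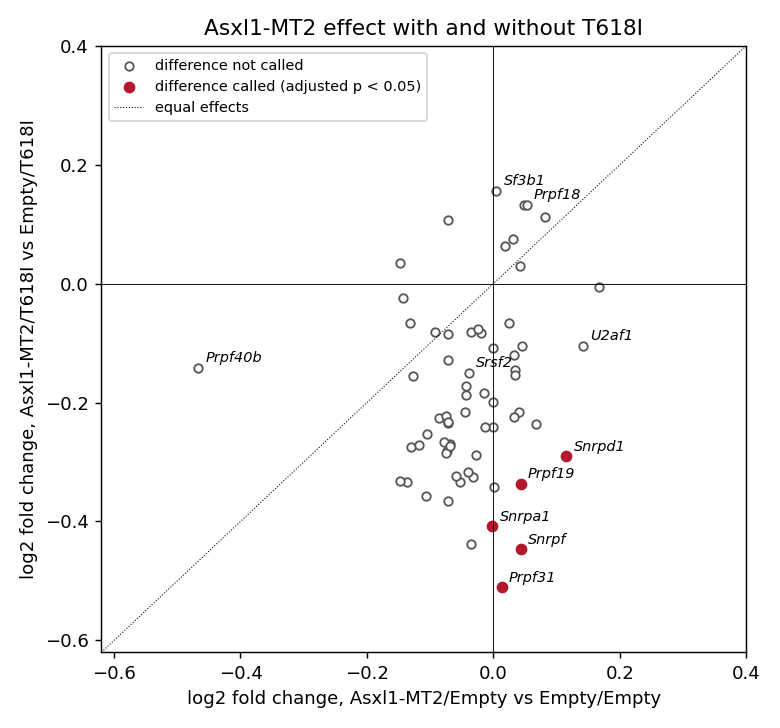
Each point is 1 of the 66 tested members, with its log2 fold change for Asxl1-MT2 without T618I on the x axis and with T618I on the y axis. Filled points are the 5 members whose difference passed the test. Most points lie below the dotted line of equal effects, and 57 of 66 lie below 0 on the y axis.

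The genes that are recurrently mutated in human myeloid neoplasms changed little here in level. Sf3b1 was at 494, 479 and 498 CPM in Asxl1-MT2/T618I, 424, 431 and 465 CPM in Empty/T618I, 404, 442 and 499 CPM in Asxl1-MT2/Empty and 422, 452 and 465 CPM in Empty/Empty. The Asxl1-MT2/T618I libraries lay above those of Empty/T618I and Empty/Empty and overlapped Asxl1-MT2/Empty, and no comparison was called (log2 fold change against Empty/T618I 0.16 ± 0.0819 (SE; edgeR adjusted p = 0.132)). Srsf2 was at 584, 662 and 669 CPM in Asxl1-MT2/T618I, 716, 780.1 and 627 CPM in Empty/T618I, 673, 684 and 670.4 CPM in Asxl1-MT2/Empty and 736, 701 and 646 CPM in Empty/Empty. The groups overlapped except Asxl1-MT2/T618I and Asxl1-MT2/Empty, where the Asxl1-MT2/T618I libraries were lower, and no difference was called (against Empty/T618I -0.15 ± 0.0875 (SE; edgeR adjusted p = 0.176)). Of the stretches of Srsf2, 30.6% also occur in other annotated genes. U2af1, which reads the AG of the 3′ splice site, was at 141, 141 and 138 CPM in Asxl1-MT2/T618I, 154, 163 and 133 CPM in Empty/T618I, 166, 171 and 162 CPM in Asxl1-MT2/Empty and 161, 147 and 145 CPM in Empty/Empty. It fell in Asxl1-MT2/T618I against Asxl1-MT2/Empty (-0.25 ± 0.0809 (SE; edgeR adjusted p = 0.0152)). This call was lost without Asxl1-MT2/T618I library B or C or Asxl1-MT2/Empty library B (highest adjusted p = 0.0525), and 49.5% of the stretches of U2af1 also occur in other annotated genes, 3 of them pseudogenes. Zrsr2, the small U2AF relative for minor introns, was at 29.3, 26.2 and 26.96 CPM in Asxl1-MT2/T618I, 27.2, 28.5 and 31.5 CPM in Empty/T618I, 25.3, 25.1 and 26.6 CPM in Asxl1-MT2/Empty and 28.9, 28.3 and 32.6 CPM in Empty/Empty, and no comparison was called. RNA levels do not show whether the cells carry mutations in these genes, or how they splice.

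**Figure D5:**
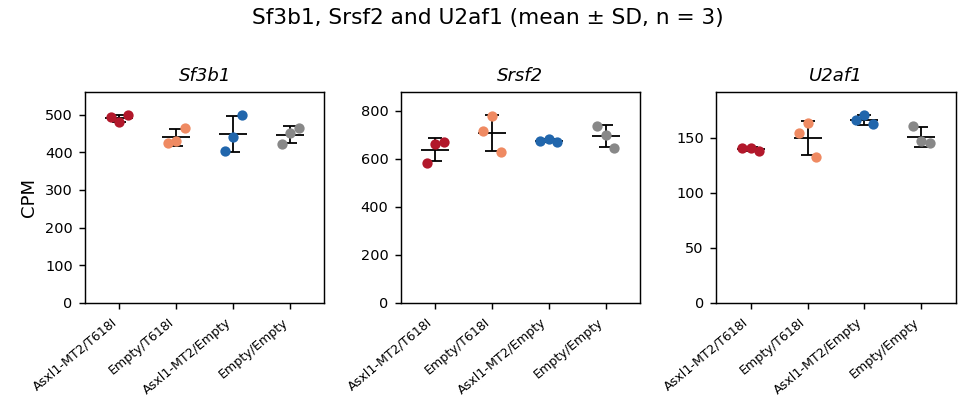
Levels in CPM (y axis, from 0) of Sf3b1, Srsf2 and U2af1 in the 12 libraries by group on the x axis, with mean ± SD (n = 3). The Sf3b1 points of Asxl1-MT2/T618I lie between 479 and 498, and U2af1 points of Asxl1-MT2/T618I lie below those of Asxl1-MT2/Empty.

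A list of 143 other splicing genes, namely further snRNP proteins, helicases, SMN complex members, kinases and regulators of alternative splicing, had 140 members tested. In Asxl1-MT2/T618I against Empty/T618I, 9 were higher and 40 lower (35.0% called, against 43.9% of all genes), with a median log2 fold change of -0.13. By direction, 6.43% of the list were higher and 28.6% lower, against 25.4% and 18.5% of all genes tested. Srpk2, a kinase of SR proteins, was at 138, 135 and 124 CPM in Asxl1-MT2/T618I, 81.4, 70.1 and 69.4 CPM in Empty/T618I, 122, 122 and 117 CPM in Asxl1-MT2/Empty and 119, 124 and 106 CPM in Empty/Empty. The Empty/T618I libraries lay below all others. Its log2 fold change was 0.85 ± 0.0858 (SE; edgeR adjusted p = 5.05e-07) in Asxl1-MT2/T618I against Empty/T618I and -0.66 ± 0.0859 (SE; edgeR adjusted p = 8.66e-06) in Empty/T618I against Empty/Empty, and the interaction was 0.80 ± 0.12 (SE; edgeR adjusted p = 0.000182). Mbnl2, a regulator of alternative exons, and the kinase gene Clk1 were likewise lowest in Empty/T618I. Mbnl2 was at 101, 86.8 and 85.6 CPM in Asxl1-MT2/T618I, against 64.4, 63.4 and 64.1 CPM in Empty/T618I (0.51 ± 0.104 (SE; edgeR adjusted p = 0.000665)). Clk1, which phosphorylates SR proteins, was at 98.3, 100.0 and 83.8 CPM in Asxl1-MT2/T618I, against 69.98, 68.4 and 70.5 CPM in Empty/T618I (0.43 ± 0.0823 (SE; edgeR adjusted p = 0.000381)). Ptbp2, a relative of Ptbp1 best known in neurons, rose too (0.59 ± 0.159 (SE; edgeR adjusted p = 0.00616)), with 23.8, 22.9 and 15.9 CPM in Asxl1-MT2/T618I, against 15.96, 14.3 and 11.2 CPM in Empty/T618I, where Asxl1-MT2/T618I library C lay within the Empty/T618I range. Ptbp1, the repressor of many exons, was at 1005, 1120.0 and 1076 CPM in Asxl1-MT2/T618I, 1232, 1277 and 1107 CPM in Empty/T618I, 1073, 1059 and 1050.3 CPM in Asxl1-MT2/Empty and 1248, 1190.3 and 926 CPM in Empty/Empty and was not called, and neither was Mbnl1, at 434, 438 and 454 CPM in Asxl1-MT2/T618I, 422, 436 and 435 CPM in Empty/T618I, 462, 485 and 544 CPM in Asxl1-MT2/Empty and 444, 486 and 477 CPM in Empty/Empty.

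SMN complex genes load Sm rings onto snRNAs. Gemin5, which recognises the snRNA, was at 55.6, 60.5 and 74.1 CPM in Asxl1-MT2/T618I, against 87.7, 102 and 114 CPM in Empty/T618I (-0.67 ± 0.117 (SE; edgeR adjusted p = 0.000172)). Gemin8 was at 4.57, 5.01 and 5.06 CPM in Asxl1-MT2/T618I, against 7.11, 9.35 and 6.89 CPM in Empty/T618I (-0.67 ± 0.196 (SE; edgeR adjusted p = 0.00981)). Gemin2, Gemin4 and Gemin6 were called lower as well, and Gemin7 higher. Gemin4 was at 33.4, 37.4 and 38.3 CPM in Asxl1-MT2/T618I, 51.2, 55.2 and 56.9 CPM in Empty/T618I, 45.1, 47.6 and 51.1 CPM in Asxl1-MT2/Empty and 50.2, 48.7 and 50.97 CPM in Empty/Empty, with Asxl1-MT2/T618I below all others and an interaction of -0.52 ± 0.124 (SE; edgeR adjusted p = 0.00664). Gemin2 had an interaction of -0.70 ± 0.225 (SE; edgeR adjusted p = 0.0373). Lsm7, of the ring on U6 RNA, was at 14.97, 15.04 and 15.4 CPM in Asxl1-MT2/T618I, against 22.8, 25.01 and 23.2 CPM in Empty/T618I (-0.64 ± 0.161 (SE; edgeR adjusted p = 0.00363)). Cwc27, a peptidyl-prolyl isomerase relative of the spliceosome, was at 22.3, 24.7 and 24.8 CPM in Asxl1-MT2/T618I, 29.8, 31.7 and 30.3 CPM in Empty/T618I, 38.9, 42.03 and 51.2 CPM in Asxl1-MT2/Empty and 35.9, 35.4 and 44.1 CPM in Empty/Empty. The order was Asxl1-MT2/T618I lowest, then Empty/T618I, with the groups without T618I above. Its log2 fold change was -0.88 ± 0.117 (SE; edgeR adjusted p = 6.76e-06) in Asxl1-MT2/T618I against Asxl1-MT2/Empty and -0.33 ± 0.115 (SE; edgeR adjusted p = 0.0343) in Empty/T618I against Empty/Empty, and the interaction was -0.55 ± 0.164 (SE; edgeR adjusted p = 0.0254).

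Snrnp70, which binds U1 RNA, was higher with T618I whether Asxl1-MT2 was present or not. Snrnp70 was at 369, 388 and 358 CPM in Asxl1-MT2/T618I, 346, 334 and 341 CPM in Empty/T618I, 302, 288 and 282 CPM in Asxl1-MT2/Empty and 282, 284 and 293 CPM in Empty/Empty. All 6 libraries with T618I lay above the 6 without it, with log2 fold changes of 0.36 ± 0.0679 (SE; edgeR adjusted p = 0.000299) in Asxl1-MT2/T618I against Asxl1-MT2/Empty and 0.25 ± 0.0679 (SE; edgeR adjusted p = 0.00823) in Empty/T618I against Empty/Empty. The kinase gene Clk3 rose in Asxl1-MT2/T618I against Asxl1-MT2/Empty (0.40 ± 0.083 (SE; edgeR adjusted p = 0.000641)), with 90.1, 96.7 and 85.3 CPM in Asxl1-MT2/T618I, against 69.9, 70.2 and 65.97 CPM in Asxl1-MT2/Empty. It was not called in Empty/T618I against Empty/Empty (0.15; edgeR adjusted p = 0.187). Esrp2, an epithelial splicing regulator, was at 0.849, 1.25 and 1.55 CPM in Asxl1-MT2/T618I, 1.44, 0.573 and 1.67 CPM in Empty/T618I, 0.494, 0.296 and 0.2 CPM in Asxl1-MT2/Empty and 0.101, 0.0994 and 0.206 CPM in Empty/Empty. It was called higher in Empty/T618I than in Empty/Empty (3.06 ± 0.636 (SE; edgeR adjusted p = 0.00101)) and in Asxl1-MT2/T618I relative to Asxl1-MT2/Empty (1.85 ± 0.532 (SE; edgeR adjusted p = 0.00806)), from levels near 1 count per library in Empty/Empty. Magohb of the exon junction complex and Lsm10 of the U7 snRNP were named by their change in Asxl1-MT2/T618I against Empty/Empty, at -0.56 and 0.40 on the log2 scale (edgeR adjusted p = 0.000933 and 0.0267). Pspc1, a paraspeckle protein, and Sart1 of the tri-snRNP had the next largest rises in Empty/T618I against Empty/Empty after Esrp2, at 0.43 and 0.39 (adjusted p = 0.0111 and 0.0161, edgeR). Of the 140 tested in the list, Empty/T618I against Empty/Empty had 14 higher and 7 lower, where 33.5% of all genes tested were called. Asxl1-MT2/Empty against Empty/Empty had 0 called (4 at an unadjusted p under 0.05, 0 with DESeq2), against 1.76% of all genes. Asxl1-MT2/T618I against Asxl1-MT2/Empty had 7 higher and 22 lower, where 49.7% of all genes were called. Asxl1-MT2/T618I against Empty/Empty had 8 higher and 32 lower, where 50.5% of all genes were called. The interaction had 2 higher and 9 lower, where 19.6% of all genes were called. Each time, the share of the list called in either direction was below that of all genes tested. For falls alone this did not hold in 2 comparisons. Against Empty/T618I, 28.6% of the list and 18.5% of all genes were lower in Asxl1-MT2/T618I. In the interaction, 6.43% of the list and 5.55% of all genes were lower, and 1.43% and 14.1% were higher.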

How the data were processed

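RNA-seq was measured in 12 libraries of HoxB8 cells. The authors deposited 1 table of raw read counts per gene symbol, with a column per library. Trimmomatic, STAR, DESeq2 and the build mm10 are named in the submitters' processing notes, without versions or what each did. Which tool counted reads, on which annotation and whether by strand, is not given in the sources used here. How reads of overlapping genes or near-identical copies were assigned is therefore unknown. In GENCODE M21 (GRCm38), 19 members share at least 10% of their 100-base stretches with another gene, 28 share none, and exons of 23 overlap those of another gene.

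Groups were taken from the titles. Columns carry letters and titles carry numbers, with no link between them. Counts were filtered with filterByExpr, which kept 11578 of 24411 symbols, and scaled with TMM factors (0.919 to 1.03). All 12 libraries entered 1 model with 4 group means in edgeR 4.0.16 (R 4.3.3; quasi-likelihood, robust). P-values were adjusted by Benjamini-Hochberg over every gene tested, and a call means an adjusted p under 0.05. CPM are counts scaled to these library sizes, and n = 3 throughout. The steps were tested on simulated data with planted changes of at least 1.5-fold, so the recovery of smaller changes was not tested. Total counts of 9341984 to 10252291 limit the precision of genes with few counts.

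Alternatives were DESeq2 1.42.0, its size factors, library totals, no filter, only the groups compared, the column letter as a block, all letter C libraries left out, and each library left out in turn. Members, gene lists and tests were chosen with earlier results of these data known, so no pattern here is independent support for them. Named genes were, per comparison, the 6 called members with the smallest p, the called member with the largest change in each class, the 6 smallest p-values of the interaction, Sf3b1, Srsf2 and U2af1, and for other splicing genes the 3 called with the largest change in each direction plus Zrsr2, Clk1, Ptbp1 and Mbnl1. Other members are named by their class and result. The values of 1 member and of 1 marker gene are not reported here, though both are in the counts and sums.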

Additional observations from a re-analysis of the deposited data

Results flagged for a closer look

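The difference between the Asxl1-MT2 effect with T618I and the effect without T618I passed the edgeR interaction test (adjusted p under 0.05) for 5 members. In each, the Asxl1-MT2 effect, not the level itself, was lower with T618I than without it. On the log2 scale the difference was -0.52 for Prpf31, -0.38 for Prpf19, -0.49 for Snrpf, -0.41 for Snrpd1 and -0.41 for Snrpa1. Prpf31 and Prpf19 take part in the assembly and activation of the spliceosome, and Snrpf, Snrpd1 and Snrpa1 are snRNP proteins. The 5 are 7.58% of the members tested, against 19.6% of all genes tested called in either direction (5.55% lower, 14.1% higher). Only the calls of Prpf31 and Prpf19 held in every fit without 1 library. Asxl1 itself was higher in Asxl1-MT2/Empty than in Asxl1-MT2/T618I, as given above. No group had 4 or more libraries, so single libraries were not screened for values that stand apart.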

How the results depend on the processing

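With DESeq2 or its size factors each count of members called stayed within 1.5 times of the edgeR count or at 0, and every member median kept its sign. With library totals in place of TMM factors, members lower were 45 in Asxl1-MT2/T618I against Empty/T618I (median -0.34), 28 against Asxl1-MT2/Empty (-0.21), 39 against Empty/Empty (-0.26) and 19 in the interaction (-0.27). Of all genes tested, 30.3%, 32.9%, 34.9% and 12.2% were lower there, in the same order. Other splicing genes called were then 79, 54, 72 and 30. Without the low-count filter, or with only the groups compared, 1 member was lower in Empty/T618I against Empty/Empty, where 11.1% and 15.4% of all genes were lower. Without all letter C libraries, that comparison had 19 of 66 members higher, 2 lower and 33 other splicing genes called. Of all genes, 19.9% were higher and 15.6% lower there. In the same setting Asxl1-MT2/Empty against Empty/Empty had 2 members lower and 2 other genes called, with 1.53% of all genes lower. Asxl1-MT2/T618I had 46 of 66 members lower against Empty/T618I (median -0.28), where 23.0% of all genes were lower. Against Asxl1-MT2/Empty, 2 of 66 were higher and 14 lower, with 27.6% of all genes higher and 23.7% lower. Against Empty/Empty, 4 were higher, with 28.2% of all genes higher. The interaction then had 24 members lower and 31 other genes called, with 11.1% of all genes lower. The cause of these shifts was not tested.

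The letters were not taken as pairs, since deviations of same-letter libraries correlated at -0.0606 to 0.22 and only 7 of 18 pairs were above 0.1. Pairing was uneven: among the groups other than Asxl1-MT2/T618I, letter A pairs lay at 0.147 to 0.168, letter C pairs at 0.181 to 0.22, letter B pairs at -0.0226 to 0.0448 and pairs of A with C at -0.226 to -0.116. Same-letter pairs with Asxl1-MT2/T618I lay at -0.0606 to 0.106. With the letter as a replicate block, Empty/T618I against Empty/Empty had 11 members higher and 1 lower, with 19.5% of all genes higher and 17.6% lower. The interaction had 12 members lower and 23 other splicing genes called, with 8.4% of all genes lower. Other counts stayed within 1.5 times.

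Over the fits that left out 1 library, Empty/T618I against Empty/Empty had 4 to 14 members higher, 0 to 3 lower and 10 to 27 other genes called. Asxl1-MT2/Empty against Empty/Empty had 0 members called and 0 to 1 other genes. Asxl1-MT2/T618I had 20 to 35 members lower and 27 to 61 other genes called against Empty/T618I, 1 to 2 members higher, 3 to 10 lower and 17 to 30 other genes against Asxl1-MT2/Empty, and 1 to 3 higher, 8 to 22 lower and 24 to 43 other genes against Empty/Empty. The interaction had 2 to 11 members lower and 3 to 21 other genes. In the fits with the fewest and most members lower, 13.1% and 20.9% of all genes were lower against Empty/T618I. These shares were 17.5% and 22.9% against Asxl1-MT2/Empty, and 17.9% and 24.1% against Empty/Empty. With 11 members lower in the interaction, 7.86% of all genes were lower. With 14 members higher in Empty/T618I against Empty/Empty, 18.9% of all genes were higher.

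Among the members and genes named, signs changed only for log2 values that passed no test where they changed. U2af1 in Empty/T618I against Empty/Empty was 0.0004 with DESeq2, 0.0002 with its size factors and 0.0646 without letter C (-0.0561 to 0.0917 without 1 library). Sf3b1 in Asxl1-MT2/Empty against Empty/Empty was -0.0171 with library totals, -0.0008 without the filter, -0.0058 with only the groups compared and -0.0628 without letter C (-0.0794 to 0.0739). Mbnl1 in Asxl1-MT2/T618I against Empty/T618I was -0.0901 with library totals and -0.0090 without letter C (-0.0035 to 0.0477). In Asxl1-MT2/T618I against Asxl1-MT2/Empty, library totals gave -0.0075 for Zrsr2, -0.0799 for Clk1 and -0.0964 for Ptbp1, and Ptbp1 was -0.0024 without the filter and -0.0036 without letter C. Over fits without 1 library, Clk1 ran from -0.0107 to 0.1126 and Ptbp1 from -0.0181 to 0.0487 in that comparison. Ptbp1 ran from -0.2108 to 0.0032 in Asxl1-MT2/Empty against Empty/Empty, -0.1922 to 0.0099 in Asxl1-MT2/T618I against Empty/Empty and -0.1803 to 0.0168 in the interaction. Against Empty/Empty, Empty/T618I gave -0.0622 to 0.0298 for Sf3b1, -0.0326 to 0.1267 for Srsf2 and -0.0848 to 0.0412 for Zrsr2. Srsf2 ran from -0.0977 to 0.0057 in Asxl1-MT2/Empty against Empty/Empty, and Mbnl1 from -0.0982 to 0.0213 in the interaction.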
